A study of Sus scrofa with 4 samples.

Results

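The colony-stimulating factors CSF1, CSF2 and CSF3 were followed across 4 RNA-seq libraries of porcine fetal fibroblasts. They were chosen by symbol, and each of the 3 symbols matched 1 of the 35670 genes listed in every deposited count file. The 3 factors and all gene lists below were chosen with earlier results of these data known. Their p-values, ranks and counts are therefore no independent test. All 3 factors passed the filter on low counts that left 14617 genes for testing.

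Colony-stimulating factors are secreted proteins that drive the growth and maturation of myeloid blood cells. CSF1 (M-CSF) acts on monocytes and macrophages through the receptor tyrosine kinase CSF1R, which it shares with a second ligand, IL34. CSF2 (GM-CSF) acts on granulocytes and macrophages through CSF2RA and the shared chain CSF2RB, and CSF3 (G-CSF) acts on neutrophils through CSF3R. In human and mouse fibroblasts CSF2 and CSF3 are inducible genes with short-lived transcripts that follow interleukin-1, TNF and NF-kappaB, while CSF1 is made by many mesenchymal cells without such a stimulus.

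The labels give 2 groups of 2 libraries each. Cells labelled as over-expressing BRG1 formed the first group, and cells of wild-type genotype formed the control group. BRG1 is the ATPase of the BAF chromatin remodelling complex and is encoded by SMARCA4. All 4 libraries came from skin fibroblasts (PFFs) that had been serum-starved, and every title carries the name pTK-642, left unexplained by the labels. The labels do not say how many fetuses or clones the cells came from, nor whether each library was a culture of its own. The p-values therefore reflect the spread between these libraries, which may be technical. The series' design text asks what BRG1 over-expression in nuclear donor cells does to their chromatin.

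Counts over genes summed to between 34486400 and 38126860 reads per library. Levels are given as CPM, counts per 1000000 reads of the TMM-scaled library size. SMARCA4 had 159 and 163 CPM in the libraries labelled BRG1, against 154 and 179 CPM in controls. The labelled over-expression was not seen in its counts, which therefore do not check the label. The log2 fold change of SMARCA4 was -0.04 ± 0.11 SE, with a 95% interval from -0.27 to 0.18 (adjusted p = 0.765 by the quasi-likelihood test of edgeR). That value was 0.05 without control 2, -0.15 without control 1, 0.18 when libraries were scaled by size alone and -0.23 (adjusted p = 0.0531) with a trend over gene span taken out. Of all reads listed, 10.3% and 10.5% fell outside annotated genes in the libraries labelled BRG1, against 6.11% and 7.34% in controls, and the part of this in the results was not tested. Of the fibroblast markers, 8 of 9 had a row and all 8 were tested. Their levels summed to 35340 to 35386 CPM in the libraries labelled BRG1 and 24759 to 28064 CPM in controls. The sum moved mostly with COL1A1, with means of 10199 CPM in the libraries labelled BRG1 and 4946 CPM in controls, and COL1A2, with 7771 and 4015 CPM. Of the 8, 5 passed as higher and 0 as lower, beside 21.0% and 23.6% of all genes tested. COL3A1, PDGFRB and VIM did not pass, at -0.21, -0.22 and -0.27 on the log2 scale. Of 12 leukocyte and macrophage markers, PTPRC and LYZ had 0 reads in all 4 libraries, which allows up to 3 reads per library, and the summed level was 49.4 to 51.8 CPM in the libraries labelled BRG1 and 88.1 to 89.8 CPM in controls. Most of that sum was CD14, at 42.3 ± 0.10 CPM in the libraries labelled BRG1 and 81.5 ± 1.05 CPM in controls (SD, n = 2 each). Of the 12 markers, 6 were tested, of which 1 rose, 2 fell and 3 did not pass, beside 21.0% higher and 23.6% lower over all genes tested. ITGB2 rose, with a mean of 3.58 CPM in the libraries labelled BRG1 and 1.77 CPM in controls. TYROBP fell with CD14, with means of 0.50 and 2.14 CPM. CD68 did not pass, at 0.52 on the log2 scale. Endothelial, keratinocyte and melanocyte markers each summed to at most 17.1 CPM in any library.

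The 3 factors moved in different directions. CSF3 and CSF2 fell in the libraries labelled BRG1, by 5.19-fold and 4.09-fold, and CSF1 rose 1.50-fold. As background, 44.6% of all genes tested passed an adjusted p of 0.05, 21.0% as higher and 23.6% as lower in the libraries labelled BRG1. Passing was more common still at the levels of these genes. In the bins of mean level that hold CSF1, CSF2 and CSF3, of 10 equal bins, the shares were 60.9%, 55.6% and 66.3%. Because no transcript lengths were used, the levels of the 3 factors are not ranked against each other.

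CSF3, the neutrophil growth factor, lies on Sscrofa11.1 chromosome 12 from 22333445 to 22335949 in the RefSeq table (ENSSSCG00000017488). It received 11095 and 10492 reads in libraries 1 and 2 labelled BRG1, against 54257 and 44086 reads in controls 1 and 2. Scaled, these were 283 and 280 CPM in the libraries labelled BRG1, against 1550 and 1373 CPM in controls. Both libraries labelled BRG1 lay far below both controls, and they differed from each other by much less than the controls did. Groups did not overlap for 73.2% of all genes tested. CSF3 reads made up 0.0306% and 0.0302% of all gene reads in the libraries labelled BRG1, against 0.142% and 0.128% in controls. CSF3 fell by 2.38 ± 0.12 on the log2 scale (SE; quasi-likelihood test of edgeR, adjusted p = 1.83e-09), with a 95% interval from -2.62 to -2.13. Its fold change ranked 135th from the lowest of the 14617 tested.

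CSF2, the granulocyte and macrophage growth factor, lies on chromosome 2 from 134354724 to 134357155 (ENSSSCG00000023737). Its reads numbered 1024 and 935 in the libraries labelled BRG1, against 3889 and 3145 in controls. After scaling, CSF2 stood at 26.1 and 25.0 CPM in the libraries labelled BRG1, against 111 and 98.0 CPM in controls. The groups did not overlap, as was the case for 73.2% of all genes tested. CSF2 fell by 2.03 ± 0.11 on the log2 scale (SE; quasi-likelihood test of edgeR, adjusted p = 3.39e-09), with a 95% interval from -2.27 to -1.79, and ranked 236th from the lowest fold change.

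CSF1, the macrophage growth factor, lies on chromosome 4 from 110178466 to 110198232 (ENSSSCG00000037449). It was counted in 3880 and 3444 reads in the libraries labelled BRG1, against 2033 and 2227 reads in controls. Its level was 98.9 and 92.0 CPM in the libraries labelled BRG1, against 58.1 and 69.4 CPM in controls. Here both libraries labelled BRG1 lay above both controls, with a gap wider than the distance between the libraries of either group. Groups without overlap made up 73.2% of all genes tested. CSF1 rose by 0.58 ± 0.11 on the log2 scale (SE; quasi-likelihood test of edgeR, adjusted p = 0.000617). The 95% interval of its fold ran between 1.27 and 1.77. This was a modest change by the measure of the table, ranking 3193rd from the highest. In bulk libraries, fewer cells that make a transcript and less transcript per cell cannot be told apart.

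**Figure D1:**
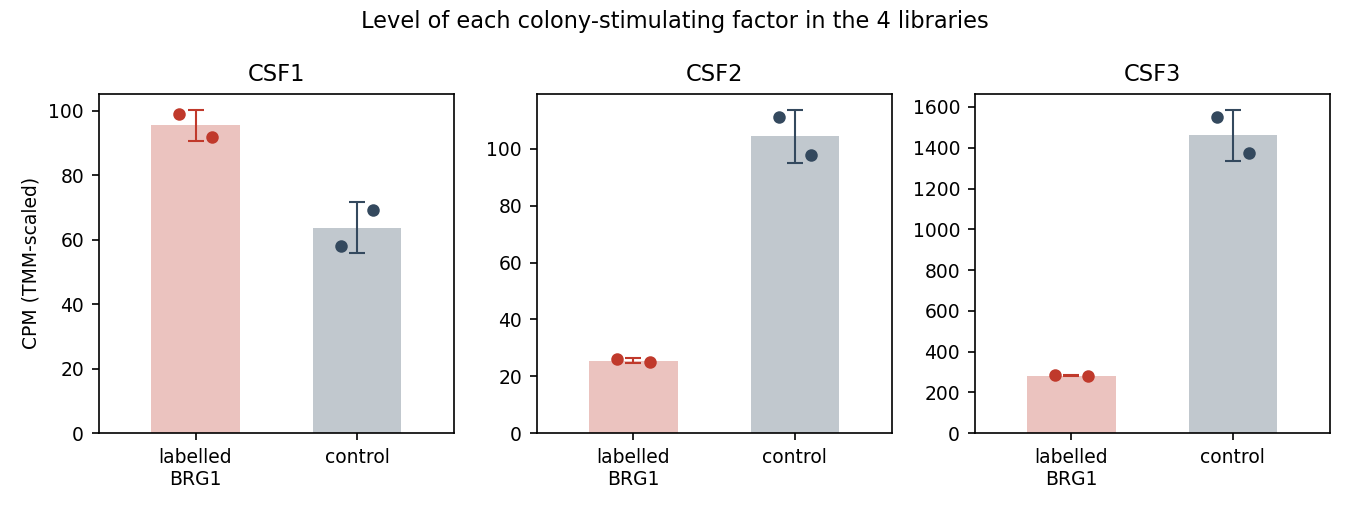
Level of CSF1, CSF2 and CSF3 in TMM-scaled CPM, on a separate linear axis for each gene, with points for the 2 libraries labelled BRG1 and the 2 controls, bars for the group mean and error bars for the SD. CSF2 and CSF3 were lower in both libraries labelled BRG1 than in both controls, and CSF1 was higher.

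The directions and calls of all 3 factors were the same in each of the 12 alternatives run. Across them the log2 fold change ran from 0.45 to 0.81 for CSF1, from -2.14 to -1.64 for CSF2 and from -2.48 to -1.99 for CSF3. The smallest value for CSF1, 0.45, came without control 1. Without library 1 labelled BRG1 the CSF1 value was 0.53. A fit with a library left out takes its spread from the other group alone. The SE of CSF3 was 0.285 and 0.286 without library 1 or 2 labelled BRG1, and 0.0373 and 0.0364 without control 1 or 2. Calls in such fits therefore move with the source of the spread as well as with the fold change. When libraries were scaled by size alone, the median over all genes tested moved to 0.24 on the log2 scale, against 0.02 with TMM, and the split of calls to 4820 higher and 2139 lower, against 3068 higher and 3444 lower. The CSF1 value of 0.81 came from that setting.

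**Figure D2:**
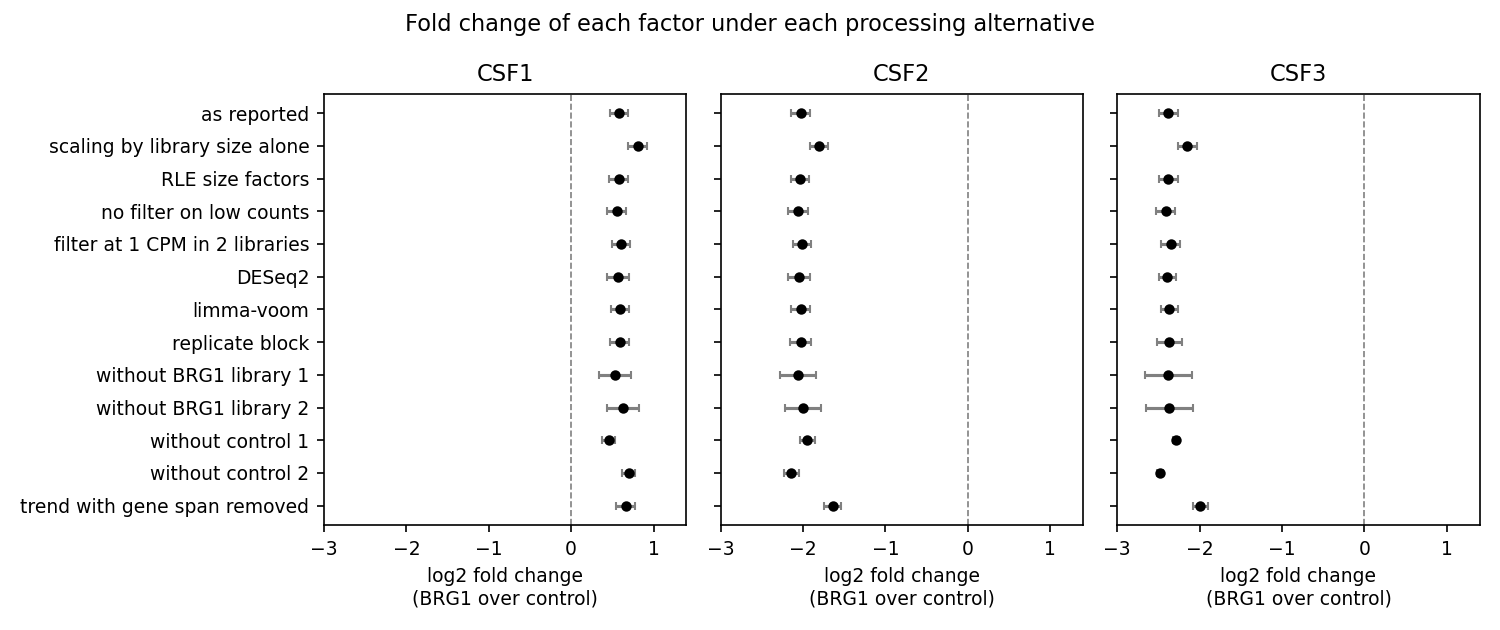
Log2 fold change of the libraries labelled BRG1 over controls for each factor, as reported and under 12 alternatives, with bars of 1 SE and a dashed line at 0. CSF1 stayed between 0.45 and 0.81, CSF2 between -2.14 and -1.64, and CSF3 between -2.48 and -1.99.

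Across genes, the log2 fold change rose with gene span, the length of genome a gene covers. The Spearman correlation was 0.293 across the 77.5% of tested genes with a span in the RefSeq table, which are not independent replicates. Whether span has a part in the values of the factors was not tested. CSF2 covers 2432 bases and CSF3 2505 bases, both in the shortest of 10 equal bins of genes by span. In that bin the median log2 fold change was -0.35, and 43.8% of genes passed as lower. Of its 1133 genes, 46 had a lower fold change than CSF2 and 30 a lower one than CSF3. CSF1 covers 19767 bases and lay in bin 4, where the median was -0.14 and 13.3% of genes passed as higher, and 141 of its 1132 genes had a higher fold change. With each library's trend with span removed, CSF3 stood at -1.99 ± 0.09, CSF2 at -1.64 ± 0.10 and CSF1 at 0.66 ± 0.11 (SE; adjusted p = 9.11e-11, 1.56e-09 and 0.000119, edgeR quasi-likelihood test).

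Ratios of reads within a library do not depend on how libraries are scaled. Per CSF1 read there were 2.86 and 3.05 CSF3 reads in the libraries labelled BRG1, against 26.7 and 19.8 in controls. On the log2 scale this ratio was 1.56 ± 0.06 in the libraries labelled BRG1 and 4.52 ± 0.30 in controls (SD, n = 2 each), a difference of -2.96. CSF2 reads per CSF1 read numbered 0.264 and 0.271 in the libraries labelled BRG1, against 1.91 and 1.41 in controls. CSF2 thus had fewer reads than CSF1 in both libraries labelled BRG1 and more in both controls. This order of reads does not rank their levels, because no transcript lengths were used.

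The change in the ratio of CSF3 to CSF2 was smaller. Per CSF2 read there were 10.8 and 11.2 CSF3 reads in the libraries labelled BRG1, against 14.0 and 14.0 in controls. This log2 ratio was 3.46 ± 0.04 in the libraries labelled BRG1 and 3.81 ± 0.005 in controls (SD, n = 2 each), a difference of -0.34. All 3 ratios were separated between groups, and for each the exact two-sided permutation test gave p = 0.333, the smallest that 2 against 2 libraries allow (0.333 also after Benjamini-Hochberg adjustment over the 3 ratios).

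**Figure D3:**
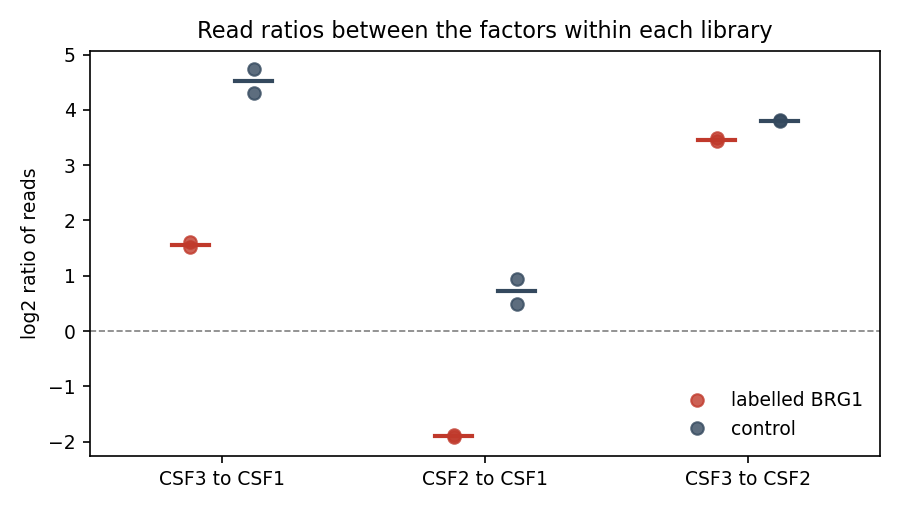
Log2 ratio of reads between pairs of factors in each library, with points for libraries labelled BRG1 and controls and short lines for group means. The ratios to CSF1 lay 2.96 and 2.62 lower in the libraries labelled BRG1, and the ratio of CSF3 to CSF2 lay 0.34 lower.

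Receptors of the factors were at or near 0 reads. CSF1R had 1 and 4 reads in the libraries labelled BRG1, against 2 and 0 in controls. CSF3R had 1 and 0 reads in the libraries labelled BRG1, against 6 and 1 in controls, and CSF2RB had 0 in all 4 libraries, which allows up to 3 reads per library, for counting error only. CSF2RA and IL3RA have no row under these symbols and were not analysed here. Of the 10 receptors listed, 2 had enough reads to test, among them KIT, the receptor of stem cell factor. Neither passed (0 of 2 also at an unadjusted p of 0.05 in edgeR, and 0 of those tested in DESeq2 and limma-voom). KIT had 2.55 and 3.05 CPM in the libraries labelled BRG1, against 2.77 and 2.15 CPM in controls.

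Among 13 other haematopoietic growth factors, 7 were tested, of which 1 rose and 2 fell, with a median log2 fold change of -0.07. Over all genes tested, 21.0% rose and 23.6% fell, with a median of 0.02. KITLG, stem cell factor, rose to 288 ± 21.1 CPM in the libraries labelled BRG1, against 81.7 ± 3.28 CPM in controls (SD, n = 2 each; log2 fold change 1.82 ± 0.11 SE). IL11, a cytokine of the interleukin-6 family, fell to 113 ± 0.48 CPM, against 652 ± 89.9 CPM in controls (-2.52 ± 0.12). IL15, a lymphocyte growth factor, fell on few reads, with 6 and 8 in the libraries labelled BRG1, against 50 and 40 in controls. IL34, the second ligand of CSF1R, had 6.94 and 7.61 CPM in the libraries labelled BRG1, against 7.63 and 6.35 CPM in controls, and did not pass (0.06 ± 0.20, adjusted p = 0.844, edgeR quasi-likelihood test). The number of rises in this list was 2 with library size alone, with a filter at 1 CPM or with the span trend removed.

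The next list holds signals and transcription factors that act upstream of CSF2 and CSF3 in human and mouse cells, together with inhibitors of NF-kappaB. Of 32 genes listed, 30 were tested, 6 rose and 17 fell, with a median of -0.45, against 21.0% higher, 23.6% lower and a median of 0.02 over all genes tested. Like the other lists, this list was chosen with earlier results of these data known, so these counts are no independent test. IL1A, interleukin-1 alpha, had 346 ± 4.78 CPM in the libraries labelled BRG1 and 2063 ± 141 CPM in controls (SD, n = 2 each; log2 fold change -2.58 ± 0.12 SE). The NF-kappaB precursor NFKB2 had 254 ± 9.09 CPM in the libraries labelled BRG1 and 712 ± 3.45 CPM in controls (-1.49 ± 0.11). NFKBIZ, a nuclear cofactor of NF-kappaB at secondary inflammatory genes, fell by 1.36 ± 0.10, FOSL1, an AP-1 subunit, by 1.58 ± 0.12, and the NF-kappaB inhibitors TNFAIP3 and NFKBIA by 1.13 ± 0.10 and 1.07 ± 0.11 on the log2 scale. NFKBIA stood at -0.69 with the span trend removed. These 6 genes passed with adjusted p between 1.24e-09 and 1.23e-06 (edgeR quasi-likelihood test).

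Others in this list are named after their values were seen. NFKB1 fell by 0.94 ± 0.11 and RELA, the main activating subunit, by 0.48 ± 0.10 on the log2 scale. Without library 1 labelled BRG1 RELA was at -0.49, and without library 2 at -0.47. RELA stood at -0.25 with library size alone and with the span trend removed. TNF had 10 and 13 reads in the libraries labelled BRG1, against 39 and 50 in controls (-2.14 ± 0.64, adjusted p = 0.0133, edgeR quasi-likelihood test). Its log2 fold change was -1.93 without library 1 labelled BRG1 and -1.89 without control 2. Rises included CEBPA, a myeloid and adipocyte transcription factor, at 1.44 ± 0.19, and NFATC4, a calcineurin-dependent factor, at 0.77 ± 0.10 on the log2 scale. TRAF6 also rose, by 0.65 ± 0.15. MYD88, IRAK1, IRAK4, IL1RAP and CEBPD were among the 7 tested genes of the list that did not pass. IL1B and IL17RC have no row under these symbols and were not analysed here.

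Transcripts of CSF2 and CSF3 carry AU-rich elements in human and mouse, through which binding proteins set their decay. Of 23 genes for such proteins and the decay machinery, 5 rose and 8 fell, with a median of -0.05, beside 21.0% higher and 23.6% lower over all genes tested. ZC3H12A, the endonuclease Regnase-1 that cleaves inflammatory transcripts, had 82.6 ± 1.92 CPM in the libraries labelled BRG1 and 324 ± 17.3 CPM in controls (SD, n = 2 each; log2 fold change -1.97 ± 0.10 SE). ZFP36, tristetraprolin, named after its value was seen, had 38.4 and 41.7 CPM in the libraries labelled BRG1, against 35.9 and 44.3 CPM in controls, and its groups overlapped (-0.0009 ± 0.13). It passed as higher with the span trend removed (0.38, adjusted p = 0.0254, edgeR quasi-likelihood test). ZFP36L2, a relative of ZFP36, rose by 0.42 ± 0.11 on the log2 scale. It stood at 0.36 without library 1 and 0.48 without library 2 labelled BRG1, 0.65 with library size alone and 0.79 with the span trend removed. CNOT6, a deadenylase, stood at 0.94 ± 0.16, CNOT8, another deadenylase, at -0.88 ± 0.12, PCBP1, an RNA-binding protein, at -0.72 ± 0.10 and EXOSC4, an exosome subunit, at -0.93 ± 0.16. With the span trend removed PCBP1 stood at -0.29 and EXOSC4 at -0.53.

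The counts of calls in the AU-rich element list moved with the fit, and in DESeq2 3 genes passed as higher. Counts from fits with a library left out are not compared, because their spread comes from 1 group alone. With scaling by library size alone 9 rose and 4 fell, so no direction of this list is given.

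Of 22 transducers of the CSF receptors tested, 4 rose and 4 fell, with a median of -0.06. This was no more than the 21.0% higher and 23.6% lower over all genes tested. STAT5A, which CSF2 signalling activates, had 37.3 ± 1.85 CPM in the libraries labelled BRG1 and 68.2 ± 0.0076 CPM in controls (SD, n = 2 each, log2 fold change -0.87 ± 0.11 SE). The adaptor GRB2 stood at -0.71 ± 0.11 and the kinase LYN at -0.79 ± 0.16. SOCS2, a STAT5 target and feedback inhibitor in human and mouse, rose by 2.34 ± 0.37 from 139 and 150 reads in the libraries labelled BRG1, against 30 and 20 in controls. STAT3, the main transducer of CSF3, rose by 0.45 ± 0.10 on the log2 scale, or 0.67 with library size alone. STAT3 stood at 0.46 without library 1 and 0.43 without library 2 labelled BRG1. With library size alone 7 genes of the list rose, and with the span trend removed 2 rose.

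Membrane-bound CSF1 is released by proteases, of which ADAM17 is the best known. Of 8 genes for such proteases and their partners, 2 rose and 3 fell, with a median of 0.03, beside 21.0% higher and 23.6% lower over all genes tested. ADAM17 had 53.0 ± 1.83 CPM in the libraries labelled BRG1 and 79.4 ± 11.9 CPM in controls (SD, n = 2 each; log2 fold change -0.58 ± 0.12 SE, or -0.36 with library size alone). RHBDF2, which carries ADAM17 to the cell surface, stood at -0.91 ± 0.16, and FURIN, a convertase that matures such proteases, at -1.19 ± 0.11. TIMP3, an inhibitor of ADAM17, rose to 1841 ± 34.5 CPM in the libraries labelled BRG1, against 754 ± 49.6 CPM in controls (1.29 ± 0.11), and CSPG4, the NG2 proteoglycan, stood at 0.62 ± 0.13. The count of rises became 4 with scaling by library size alone.

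**Figure D4:**
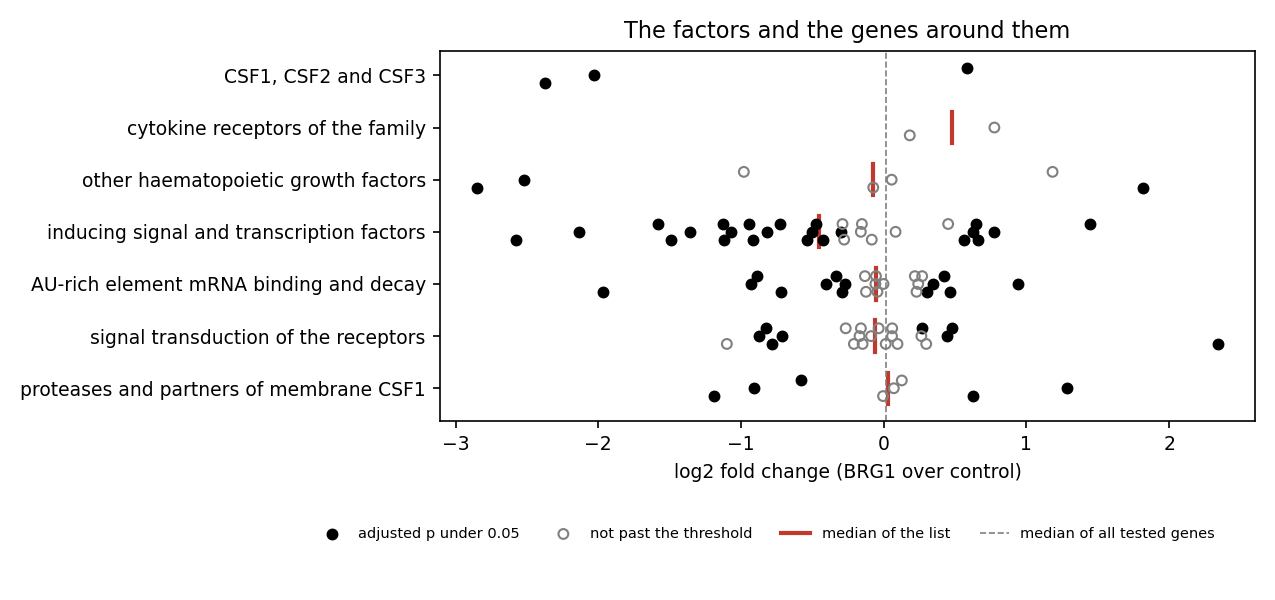
Log2 fold change of the 3 factors and of the tested genes in 6 lists, with filled points for genes past an adjusted p of 0.05, open points for the others, red lines for list medians and a dashed line for the median of all tested genes. CSF2 and CSF3 lay among the lowest values shown, near IL1A and IL11, while CSF1 lay right of the dashed line.

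The genes that flank the factors did not all move with them. The 10 nearest protein-coding genes with a row, 5 on each side of each factor, were taken by position in the RefSeq table of the same build, and no gene of that table overlaps a factor. Of 7 tested neighbours of CSF3, 3 rose and 1 fell, with a median of 0.18, beside 21.0% higher and 23.6% lower over all genes tested. MED24, a Mediator subunit 1242 bases away, had 53.6 and 55.3 CPM in the libraries labelled BRG1, against 54.8 and 62.4 CPM in controls, and did not pass (log2 fold change -0.11 ± 0.11 SE, adjusted p = 0.452, edgeR quasi-likelihood test). It was 0.12 with scaling by library size alone and -0.205 without control 1. PSMD3, a proteasome subunit 8802 bases away on the other side, fell to 144 and 141 CPM in the libraries labelled BRG1, against 348 and 330 CPM in controls (-1.25 ± 0.10). NR1D1, the clock repressor REV-ERB alpha, rose by 0.83 ± 0.14, and MSL1 and CASC3 by 0.29 ± 0.10 each on the log2 scale. With library size alone MSL1 and CASC3 stood at 0.51 each, and MSL1 at 0.45 with the span trend removed. Without library 1 or 2 labelled BRG1 they stood between 0.25 and 0.32. In DESeq2 and with no filter, 1 neighbour of CSF3 passed as higher.

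Around CSF2, 8 neighbours were tested, of which 2 rose and 3 fell (median 0.18), beside 21.0% higher and 23.6% lower over all genes tested. IRF1, an interferon-induced transcription factor, fell to 45.7 and 50.4 CPM in the libraries labelled BRG1, against 142 and 136 CPM in controls (log2 fold change -1.53 ± 0.10 SE). P4HA2, a collagen prolyl hydroxylase, stood at -0.79 ± 0.10, PDLIM4 at -0.43 ± 0.11, SLC22A5, a carnitine transporter, at 0.47 ± 0.15 and RAPGEF6 at 0.45 ± 0.13. Without library 1 labelled BRG1 SLC22A5 and RAPGEF6 stood at 0.39 and 0.42, and without library 2 at 0.54 and 0.47. With the span trend removed they stood at 0.17 and 0.12 and did not pass, RAPGEF6 at 0.67 with library size alone, and 1 neighbour passed as higher in DESeq2. PDLIM4 stood at -0.45 without library 1 and -0.42 without library 2 labelled BRG1. With library size alone it stood at -0.21 and did not pass. Around CSF1, 8 were tested, of which 1 rose and 2 fell (median -0.002), beside the same shares over all genes tested. GNAI3, a G protein subunit, stood at 0.51 ± 0.11, AMPD2, an AMP deaminase, at -0.41 ± 0.11 and SLC6A17 at -0.31 ± 0.12. Without library 1 labelled BRG1 AMPD2 and SLC6A17 stood at -0.38 and -0.31, and without library 2 at -0.45 and -0.32. With library size alone they stood at -0.19 and -0.09 and did not pass. AMPD2 stood at -0.24 with the span trend removed, and SLC6A17 at -0.47 without control 1 and -0.16 without control 2. With a filter at 1 CPM or with the span trend removed 1 neighbour of CSF1 passed as lower. The closest of all, AHCYL1, did not pass (0.04 ± 0.11, adjusted p = 0.772, edgeR quasi-likelihood test).

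**Figure D5:**
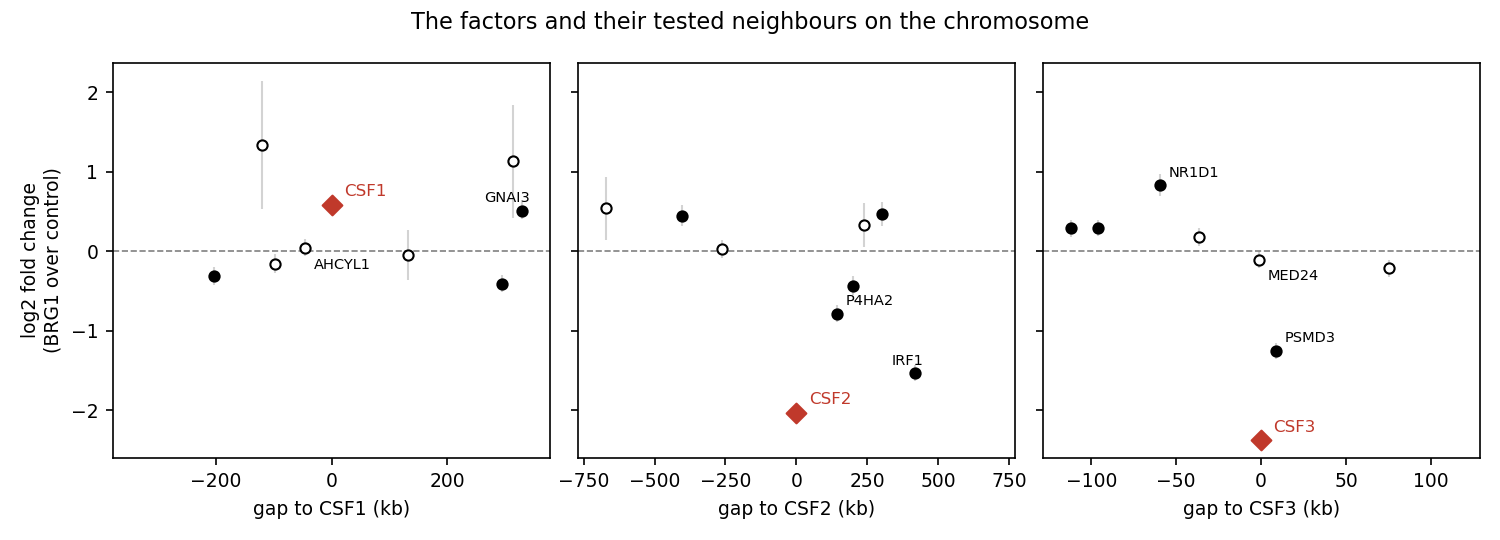
Log2 fold change (bars of 1 SE) of tested neighbours against their gap in kb from CSF1, CSF2 or CSF3, which is drawn as a red diamond at 0, with filled points past an adjusted p of 0.05. CSF2 and CSF3 lay below every tested neighbour shown, with IRF1 (-1.53) and PSMD3 (-1.25) the nearest to them in value.

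Likeness was measured as the Euclidean distance between log2 CPM profiles over the 4 libraries, each centred on its own mean, among 12148 tested genes with a symbol. With 2 groups of 2, such a distance mostly compares the size of the difference between the groups. CSF2 and CSF3 lay 0.35 apart, and 91 genes lay closer to CSF2 than CSF3 did. CSF1 lay 2.64 from CSF2 and 2.98 from CSF3. The 5 nearest to CSF3 were PSMB9, an immunoproteasome subunit (distance 0.06), the collagenase MMP1 (0.07), the stress cytokine GDF15 (0.07), the ubiquitin-like UBD (0.08) and SERPINB2, an inhibitor of plasminogen activators (0.09). Those nearest to CSF2 were MARCKSL1 (0.02), the placental growth factor PGF (0.03), CHAC1, which degrades glutathione (0.04), ARID5A (0.06) and ZC3H12A (0.08). Those nearest to CSF1 were SKI, a repressor of SMAD signalling (0.01), OTUB2 (0.02), RALGPS2 (0.03), MAGI3 (0.04) and DNASE1 (0.04).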

How the data were processed

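RNA was measured in 4 libraries, 2 per group, grouped and numbered by the sample titles. The deposited files hold whole-number read counts per Ensembl gene, not normalized, 1 file per library. The submitters' processing notes name the build Sscrofa11.1 and the tools STAR, FastQC, SAMtools, Cufflinks, edgeR and DESeq2. The read counter, the annotation release and the use of strand are not given in the sources used here. Whether the counts keep reads of a gene and its antisense partner apart is therefore not known. Closing rows that name no gene (reads outside genes, 6.11% to 10.5% of all reads listed) were left out of library sizes and tests.

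Low counts were filtered with filterByExpr (minimum count 10, minimum total 15). TMM factors scaled the libraries, and the groups were compared by the quasi-likelihood F test of edgeR 4.0.16 in R 4.3.3, without robust estimation. Benjamini-Hochberg adjustment ran over 14617 genes with a threshold of 0.05. Log2 fold changes use a prior count of 0.125, and the SE is the unshrunk log2 fold change over the square root of F. Of 35670 genes, 17508 have a symbol in the files and 223 more took one from the gene name table. Positions and spans come from the RefSeq table of Sscrofa11.1, by symbol.

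Alternatives were library size alone, RLE factors, no filter, a filter at 1 CPM in 2 libraries, DESeq2 1.42.0, limma-voom (limma 3.58.1), the replicate number as a block, and each library left out. A fit with the smooth trend of each library with gene span taken out was chosen after seeing the data. The test was checked on simulated counts. The members and all gene lists were chosen with earlier results of these data known. Named genes are the 3 factors, SMARCA4, their receptors and IL34, up to 6 genes per list with the smallest adjusted p past the threshold, called neighbours and those adjoining a factor, and the 5 nearest profiles per factor. Other names were chosen after their values were seen, as stated there. The values of 2 genes of the lists are not reported here.

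Libraries within a group differed by more than counting noise (chi-square per degree of freedom 4.8 in the libraries labelled BRG1 and 30.1 in controls), so none was counted as a duplicate.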

Additional observations from a re-analysis of the deposited data

Results flagged for a closer look

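Reads outside annotated genes, which enter no test of the factors, averaged 10.4% of all reads listed in the libraries labelled BRG1 and 6.73% in controls. They are listed as data that were not analysed. They were higher in both libraries labelled BRG1 than in both controls, and groups did not overlap for 73.2% of all genes tested.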

How the results depend on the processing

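CSF1, CSF2 and CSF3 kept their direction and their call in all 12 alternatives each. With each library left out in turn, the log2 fold change ran from 0.45 to 0.70 for CSF1, from -2.14 to -1.95 for CSF2 and from -2.48 to -2.29 for CSF3, and the difference in the CSF3 to CSF1 log2 ratio from -3.18 to -2.75. Same-numbered libraries did not deviate together (correlation -0.0442), and the labels give the numbers no meaning. This correlation alone cannot tell whether same-numbered libraries share a culture or a day. With the replicate block the values were 0.59, -2.03, -2.37 and, for the ratio, -2.96, and 3189 genes were higher and 3505 lower, against 3068 and 3444.

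Leaving out single libraries moved the counts over all genes between 1908 and 3673 higher and between 2177 and 4321 lower. With scaling by library size alone they were 4820 and 2139.

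Of 744 values of 62 other genes under alternatives, 684 kept direction and call, 43 lost the call, 2 gained it and 15 turned sign. These include fits with a library left out, whose calls rest on the spread of 1 group alone. The sign turned only in genes that did not pass as reported, and 1 of them passed after turning, ZFP36 with the span trend removed. SMARCA4 was 0.181 with library size alone, -0.233 with the span trend removed, and ran from -0.152 (without control 1) to 0.048 (without control 2). KIT was -0.00399 with the span trend removed and ran from -0.00319 (without control 2) to 0.372 (without control 1). IL34 was -0.0151 without library 2 labelled BRG1, -0.133 with the span trend removed, and ran from -0.085 (without control 2) to 0.188 (without control 1). MED24 was 0.12 with library size alone. ZFP36 was 0.22 with library size alone, 0.0209 with a filter at 1 CPM, 0.00774 in limma-voom, 0.00512 with the block, 0.379 with the span trend removed, 0.0576 without library 1 labelled BRG1, and ran from -0.153 (without control 1) to 0.143 (without control 2). Causes of these moves were not tested. The 3 factors had at least 935 reads in every library, whereas depth limits what can be said of their receptors.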
